A study of Mus musculus with 9 samples.

Results

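Foreign nucleic acid sensors are the proteins with which a cell recognises RNA or DNA that looks viral or misplaced. The group described here holds 10 genes, chosen by symbol from the 57180 rows of the count table, and all 10 were found: Rigi, Ifih1 and Dhx58 (the RIG-I-like receptors), Mavs (their adaptor), Tlr3 and Tlr7 (endosomal RNA receptors), Eif2ak2 and Zbp1 (RNA-binding effectors of translation arrest and cell death), and Cgas and Sting1 (the cytosolic DNA pathway). All 10 passed the filter on low counts and were among the 17168 genes tested.

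RNA sequencing was done on skin from athymic BALB/c nude mice, which have very few T cells and sparse hair, in 9 libraries, 3 for each of 3 groups. NoUVB skin received no ultraviolet B. UVB_Saline and UVB_hCOL3A1 skin was exposed on the back on alternate days for 8 weeks, from 60 mJ/cm² (1 minimal erythemal dose) at the start to 240 mJ/cm² (4 minimal erythemal doses) at the end. UVB_Saline was given saline and UVB_hCOL3A1 was given hCOL3A1, which the series title links to collagen mRNA. The sources used here give no age or sex and no dose, carrier or route of the treatment, and they place collection at day 28 without saying from when. No saline is named for NoUVB, and no group received a carrier or another RNA alone, so irradiation and saline in one comparison, and collagen, carrier and RNA in another, cannot be told apart. Animals are not named in the labels: the p-values therefore reflect only how far these libraries vary, and that variation may be partly technical.

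Cells detect foreign RNA by where it is and what it looks like. In the cytosol, RIG-I (Rigi) binds double-stranded RNA with a triphosphate end and MDA5 (Ifih1) binds long double-stranded RNA, and each signals through MAVS on mitochondria to the kinase TBK1 and the transcription factors IRF3 and IRF7. In endosomes, TLR3 reads double-stranded and TLR7 single-stranded RNA, which is why delivered mRNA is commonly made with modified nucleosides. Many of these sensors are themselves induced by interferon, so their transcripts report on past signalling as well as on the capacity to sense.

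Depth was moderate. Total estimated counts were 7640172 to 12927411 per library, of which the 18S ribosomal gene Rn18s-rs5 took 7.71% to 55.3%, lowest in NoUVB 2. The sensors rested on 15 counts (Tlr7 in UVB_Saline 1) to 514 counts (Ifih1 in UVB_Saline 3) per library. Keratinocyte markers (7 of 7) and fibroblast markers (6 of 6) were detected in every library, as befits skin. UVB_Saline 3 stood apart from the other saline libraries: it held the highest value of all 9 libraries for 6 of the 10 sensors, so results are given with and without it. Because it was picked by the sensors' own values, their shifts without it follow in part from that choice and are description only. The lowest value was in NoUVB 2 for 6 sensors and in UVB_Saline 1 for 4.

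Promoter sequences are shown because several sensors varied together across libraries while Mavs hardly varied, and interferon-responsive genes commonly carry sites for interferon regulatory factors (IRFs) close to their start. RefSeq promoters (build GRCm38.p6, a different build from the GRCm39 of the count table) were matched for 6 of the 10 genes: Rigi, Ifih1, Mavs, Tlr3, Eif2ak2 and Cgas. The 250 bases before the annotated start are printed 5′ to 3′ along the gene's strand for Rigi (chr4:40239826-40240075, minus strand), Tlr3 (chr8:45410381-45410630, minus strand), Ifih1 (chr2:62646256-62646505, minus strand) and Mavs (chr2:131233813-131234062, plus strand). Capitals mark AANNGAAA, the core that IRFs bind, on either strand.
Rigi: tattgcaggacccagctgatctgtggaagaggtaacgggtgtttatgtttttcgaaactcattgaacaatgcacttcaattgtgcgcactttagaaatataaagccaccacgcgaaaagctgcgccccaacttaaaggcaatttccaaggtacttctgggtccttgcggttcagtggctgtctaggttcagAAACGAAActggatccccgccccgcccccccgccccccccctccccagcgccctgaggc
Tlr3: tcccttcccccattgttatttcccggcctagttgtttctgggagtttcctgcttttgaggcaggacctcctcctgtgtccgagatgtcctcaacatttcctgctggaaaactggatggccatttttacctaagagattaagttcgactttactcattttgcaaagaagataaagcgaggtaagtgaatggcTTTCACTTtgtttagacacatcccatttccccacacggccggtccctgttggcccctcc
Ifih1: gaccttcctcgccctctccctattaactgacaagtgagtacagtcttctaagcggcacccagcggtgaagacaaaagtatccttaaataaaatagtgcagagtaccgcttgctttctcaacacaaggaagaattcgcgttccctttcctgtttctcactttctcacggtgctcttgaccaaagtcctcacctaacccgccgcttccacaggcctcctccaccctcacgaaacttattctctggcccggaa
Mavs: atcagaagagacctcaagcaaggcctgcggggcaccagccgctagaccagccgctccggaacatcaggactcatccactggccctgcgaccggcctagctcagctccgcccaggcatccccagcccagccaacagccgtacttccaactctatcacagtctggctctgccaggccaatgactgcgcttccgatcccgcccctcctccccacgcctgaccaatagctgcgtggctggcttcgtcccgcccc

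Rigi and Tlr3 each held 1 match to AANNGAAA, and in each it lay 59 to 52 bases before the start, on the gene's strand in Rigi and on the opposite strand in Tlr3. The same core occurred in 21.3% of the 32536 promoters searched over the same 250 bases. The core of the interferon-stimulated response element, GAAA repeated with 2 bases between the copies on either strand, always contains the shorter core and had a match in 2.98% of promoters and in none of the 6 sensor promoters. These matches are letters in a window: no binding was measured here.

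The RIG-I-like receptors come first. Rigi (ENSMUSG00000040296) stood at 21.2, 19.7 and 18.9 CPM (counts scaled to a common library size) in NoUVB 1, 2 and 3, at 18.9, 26.5 and 49.97 CPM in UVB_Saline 1, 2 and 3, and at 31.3, 31.7 and 34.8 CPM in UVB_hCOL3A1 1, 2 and 3. The 3 hCOL3A1 libraries lay close together above all NoUVB libraries, while the saline libraries ran from the lowest to the highest value of the 9. The group means were 19.9 ± 1.12 CPM in NoUVB, 31.8 ± 16.2 CPM in UVB_Saline and 32.6 ± 1.90 CPM in UVB_hCOL3A1 (SD, n = 3 each). The fitted log2 difference was 0.67 ± 0.30 for UVB_Saline against NoUVB (SE, edgeR adjusted p = 0.525) and 0.71 ± 0.30 for UVB_hCOL3A1 against NoUVB (adjusted p = 0.397).

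Ifih1 (ENSMUSG00000026896), which encodes MDA5, had the same shape. It stood at 25.0, 19.5 and 20.4 CPM in NoUVB, at 13.1, 25.1 and 55.7 CPM in UVB_Saline, and at 31.8, 34.6 and 32.7 CPM in UVB_hCOL3A1. UVB_Saline 1 was here below every NoUVB library, and without UVB_Saline 3 the saline difference from NoUVB changed from 0.54 ± 0.44 to -0.17 ± 0.23 on the log2 scale (adjusted p = 0.753 and 0.904). Against NoUVB the hCOL3A1 difference was 0.62 ± 0.44 (adjusted p = 0.635), with no overlap between the libraries.

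Dhx58 (ENSMUSG00000017830), the gene of LGP2, which lacks the signalling domain of the other receptors and tunes MDA5 and RIG-I, had the largest log2 difference of the 10 between UVB_Saline and NoUVB. Its levels were 2.41, 1.61 and 1.92 CPM in NoUVB, 2.36, 5.10 and 15.2 CPM in UVB_Saline and 4.80, 7.34 and 6.69 CPM in UVB_hCOL3A1. Only UVB_Saline 1 among the irradiated libraries fell inside the NoUVB range. The log2 difference was 1.93 ± 0.62 for UVB_Saline (adjusted p = 0.402) and 1.68 ± 0.63 for UVB_hCOL3A1 (adjusted p = 0.349) against NoUVB. With scaling by library size alone both were called (1.84 and 1.60, edgeR adjusted p = 0.00294 and 0.0161), as were 0.355% and 0.67% of genes in that direction. That scaling lowers the median of all genes to -0.12 for UVB_hCOL3A1 against NoUVB.

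Mavs (ENSMUSG00000037523), through which RIG-I and MDA5 signal, varied least. It stood at 13.1, 13.8 and 11.8 CPM in NoUVB, at 10.9, 14.6 and 13.9 CPM in UVB_Saline, and at 14.03, 14.2 and 14.03 CPM in UVB_hCOL3A1. Its highest library was 1.34-fold above its lowest, against 9.44-fold for Dhx58, 4.24-fold for Ifih1 and 2.65-fold for Rigi. The 3 hCOL3A1 libraries lay above all NoUVB libraries by a narrow margin, with a log2 difference of 0.13 ± 0.14 (adjusted p = 0.762).

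**Figure D1:**
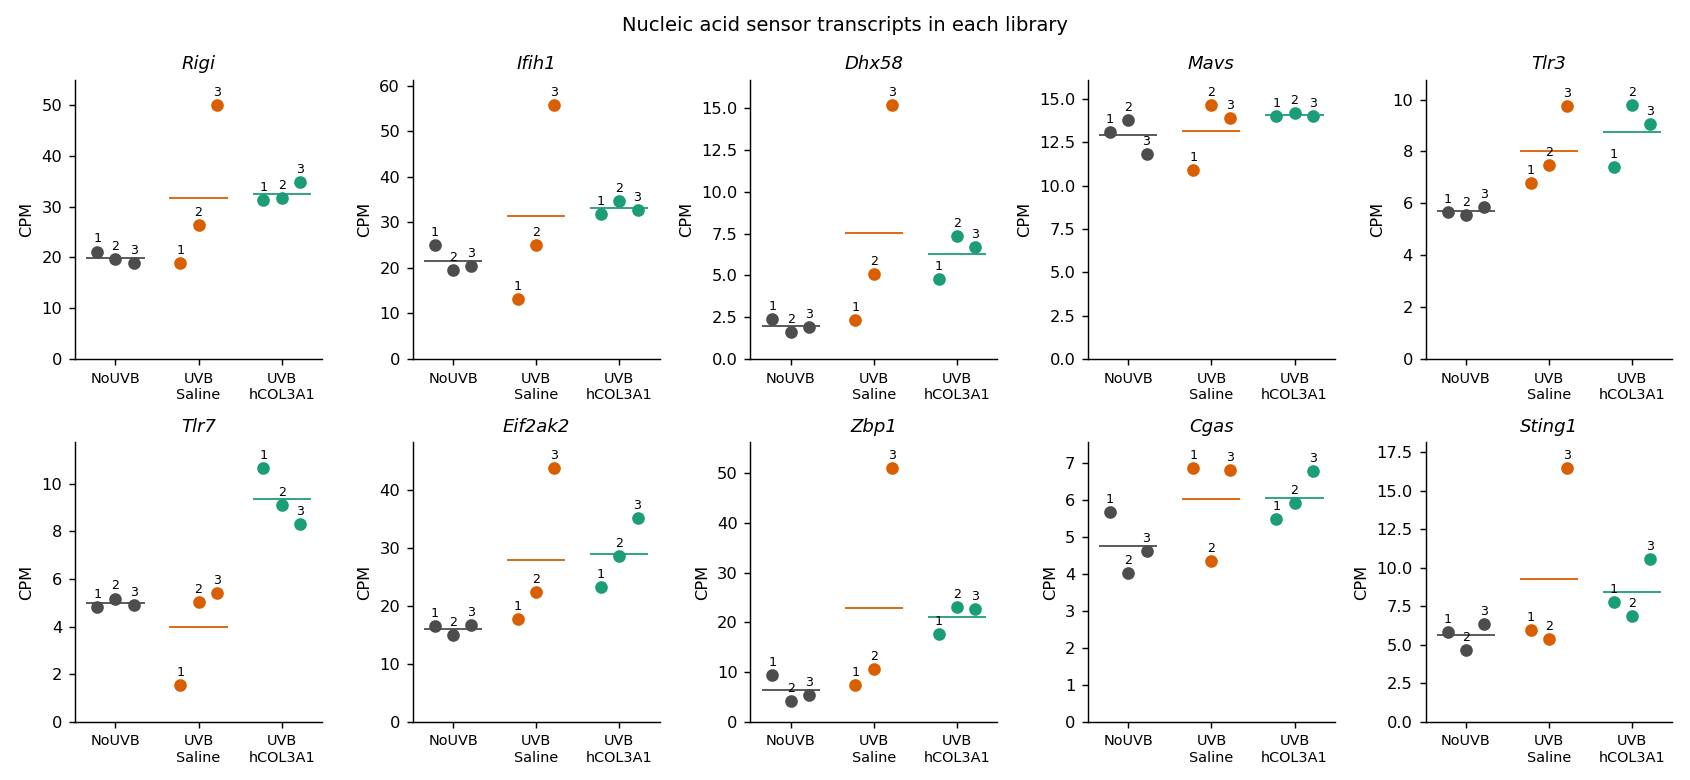
Transcript level of each of the 10 sensor genes (vertical axis, CPM on a linear scale from 0) in the 9 libraries, with NoUVB, UVB_Saline and UVB_hCOL3A1 along the horizontal axis. Points are libraries labelled by replicate number and bars are group means; for Rigi, UVB_Saline 3 sits at 49.97 CPM and the hCOL3A1 libraries at 31.3 to 34.8 CPM, all above the NoUVB maximum of 21.2 CPM.

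Of the endosomal receptors, Tlr3 and Tlr7 followed different patterns. Tlr3 (ENSMUSG00000031639), the double-stranded RNA receptor that keratinocytes carry, was at 5.68, 5.54 and 5.87 CPM in NoUVB, 6.77, 7.48 and 9.76 CPM in UVB_Saline, and 7.40, 9.78 and 9.07 CPM in UVB_hCOL3A1. All 6 irradiated libraries were above all 3 NoUVB libraries. The log2 difference from NoUVB was 0.49 ± 0.19 for UVB_Saline (adjusted p = 0.454) and 0.61 ± 0.18 for UVB_hCOL3A1 (adjusted p = 0.239), and the 2 irradiated groups differed by 0.13 ± 0.18 (adjusted p = 0.841).

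Tlr7 (ENSMUSG00000044583), the single-stranded RNA receptor of plasmacytoid dendritic cells, B cells and macrophages, stood out in the comparison of the 2 irradiated groups. It was at 4.83, 5.18 and 4.91 CPM in NoUVB, 1.54, 5.01 and 5.42 CPM in UVB_Saline, and 10.7, 9.13 and 8.31 CPM in UVB_hCOL3A1. Every hCOL3A1 library was above every other library, and UVB_Saline 1 had the lowest value. The log2 difference was 1.23 ± 0.34 for UVB_hCOL3A1 against UVB_Saline (adjusted p = 0.260) and 0.91 ± 0.34 against NoUVB (adjusted p = 0.333). UVB_Saline and NoUVB differed by -0.31 ± 0.36 (adjusted p = 0.831), and by 0.065 without UVB_Saline 1.

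The products of Eif2ak2 and Zbp1 act directly on bound nucleic acid, and UVB_Saline 3 was the highest library for both. Eif2ak2 (ENSMUSG00000024079) encodes PKR, the kinase that halts translation by phosphorylating eIF2alpha. It was at 16.5, 14.9 and 16.6 CPM in NoUVB, 17.8, 22.4 and 43.9 CPM in UVB_Saline, and 23.3, 28.6 and 35.2 CPM in UVB_hCOL3A1. Here too all 6 irradiated libraries were above the NoUVB libraries, with log2 differences of 0.80 ± 0.31 (adjusted p = 0.480) for saline and 0.86 ± 0.31 (adjusted p = 0.338) for hCOL3A1.

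Zbp1 (ENSMUSG00000027514), the sensor of left-handed Z-form nucleic acid that triggers necroptosis, spanned the widest range of the 10, 12.2-fold from NoUVB 2 to UVB_Saline 3. It was at 9.37, 4.20 and 5.39 CPM in NoUVB, 7.29, 10.5 and 51.1 CPM in UVB_Saline, and 17.7, 23.1 and 22.7 CPM in UVB_hCOL3A1. The hCOL3A1 libraries lay above all NoUVB libraries and above UVB_Saline 1 and 2. The log2 difference from NoUVB was 1.89 ± 0.76 for UVB_Saline (adjusted p = 0.508), 0.54 ± 0.31 without UVB_Saline 3 (adjusted p = 0.715), and 1.78 ± 0.76 for UVB_hCOL3A1 (adjusted p = 0.424). Scaling by library size alone called both (1.80 and 1.75, edgeR adjusted p = 0.000252 and 0.000249), as it called 0.355% and 0.67% of genes higher. That scaling counts Rn18s-rs5 in the library size, and Rn18s-rs5 took 55.3% of NoUVB 1 and 7.71% of NoUVB 2.

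In the DNA pathway, Cgas varied little and Sting1 was high in UVB_Saline 3. Cgas (ENSMUSG00000032344), the enzyme that makes cyclic GMP-AMP on DNA, was at 5.68, 4.02 and 4.62 CPM in NoUVB, 6.88, 4.36 and 6.83 CPM in UVB_Saline, and 5.49, 5.93 and 6.80 CPM in UVB_hCOL3A1. It was the only sensor for which the hCOL3A1 and NoUVB libraries overlapped, and its log2 differences from NoUVB were 0.34 ± 0.23 for saline and 0.36 ± 0.23 for hCOL3A1 (adjusted p = 0.686 and 0.578). Sting1 (ENSMUSG00000024349), the receptor of cyclic GMP-AMP, was at 5.82, 4.64 and 6.35 CPM in NoUVB, 5.95, 5.34 and 16.5 CPM in UVB_Saline, and 7.78, 6.87 and 10.6 CPM in UVB_hCOL3A1. Its saline difference from NoUVB of 0.71 ± 0.42 (adjusted p = 0.643) was 0.0039 ± 0.24 without UVB_Saline 3.

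The comparison of UVB_Saline with NoUVB asked what repeated irradiation together with saline changed. None of the 10 sensors passed an adjusted p of 0.05 in edgeR, nor in DESeq2 or limma voom. Over all genes 0% were called higher and 0.0175% lower. The log2 difference was above 0 for 9 of the 10, and its median was 0.60 where the median of all genes tested was 0.01. At an unadjusted p of 0.05, 4 of the 10 were higher (Dhx58, Tlr3, Eif2ak2 and Zbp1), where 4.93% of all genes were higher and 4.6% lower. The groups did not overlap for 2 of the 10 (Tlr3 and Eif2ak2), against 7.18% of all genes. Without UVB_Saline 3 the median was 0.21, 7 were positive and 1 passed the unadjusted threshold (Dhx58), against 3.55% of genes. No sensor was then called, and 0.00567% of genes were called higher and 0.0227% lower. The unadjusted threshold was passed by 2, 1 and 1 sensors without NoUVB 1, 2 and 3, where 1299, 1012 and 1686 genes passed in either direction. Without UVB_Saline 1, UVB_Saline 2 or any 1 hCOL3A1 library, 3 to 7 sensors and 1452 to 2298 genes passed. With scaling by library size alone, Dhx58 and Zbp1 were called, as were 0.355% of genes.

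The comparison of UVB_hCOL3A1 with UVB_Saline asked what the treatment changed in irradiated skin. Again 0 of the 10 passed, as over all genes (0% higher, 0% lower), and DESeq2 and limma voom called 0 of them. Tlr7 alone passed the unadjusted threshold, where 5.97% of all genes were higher and 5.32% lower. It alone had no overlap between the groups, where 8.95% of genes were separated upward and 8.33% downward. Counts of 1 in 10 are near these shares, and 1.80% of all genes had a smaller p than Tlr7. The other 9 sensors had log2 differences from -0.26 (Dhx58) to 0.13 (Tlr3), and the median of the 10 was 0.05 against -0.02 over all genes. These small differences rested on UVB_Saline 3. Without it all 10 were positive with a median of 0.57, and 7 passed the unadjusted threshold, against 9.39% of genes. The differences were then 1.50 ± 0.35 for Tlr7 (adjusted p = 0.0834), 1.26 ± 0.29 for Zbp1 (adjusted p = 0.0862), 0.81 ± 0.22 for Ifih1 (adjusted p = 0.138) and 0.54 ± 0.14 for Rigi (adjusted p = 0.115), none of which passed after adjustment. Without UVB_Saline 1 the median was -0.21, and without UVB_Saline 2 it was -0.07. UVB_Saline 3 was chosen for its high sensor values, so a rise without it is in part built in.

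The comparison of UVB_hCOL3A1 with NoUVB, which shares its control libraries with the first, held the most even shift. It joins irradiation and treatment, and their parts in it cannot be told apart. The log2 difference was above 0 for all 10 sensors, from 0.13 (Mavs) to 1.78 (Zbp1), and its median was 0.66 where all genes had -0.01. The libraries did not overlap for 9 of the 10, against 10.7% of all genes in that direction. At an unadjusted p of 0.05, 5 were higher (Rigi, Dhx58, Tlr3, Tlr7 and Eif2ak2), where 6.29% of genes were higher and 5.52% lower. After adjustment 0 of the 10 passed in edgeR, against 0.0408% of genes called higher, and 0 passed in DESeq2 or limma voom.

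That outcome depended on whether the saline libraries shared the estimate of spread. In a fit on the 6 NoUVB and UVB_hCOL3A1 libraries alone, 6 sensors were called higher, against 1.72% of all genes. They were Rigi (0.71 ± 0.11, adjusted p = 0.00684), Dhx58 (1.68 ± 0.26, adjusted p = 0.00772), Zbp1 (1.78 ± 0.26, adjusted p = 0.0115), Eif2ak2 (0.85 ± 0.15, adjusted p = 0.0165), Tlr7 (0.91 ± 0.17, adjusted p = 0.0202) and Ifih1 (0.62 ± 0.12, adjusted p = 0.0236). The fold differences were almost those of the 9-library fit, and the standard errors were smaller. In the 9-library fit without UVB_Saline 3, 4 were called (Rigi, Dhx58, Eif2ak2 and Zbp1, adjusted p = 0.0154 to 0.0269), against 1.02% of genes, and without UVB_Saline 1, Tlr7 was called (adjusted p = 0.0392), against 0.681%. Leaving out any other 1 library called 0 sensors, and 0 to 3 genes of the whole table. In those fits 2 to 6 sensors passed the unadjusted threshold, as did 1499 to 1924 genes in either direction. The count was 2 without NoUVB 2, NoUVB 3 or UVB_hCOL3A1 3. Scaling by library size alone called Dhx58 and Zbp1, against 0.67% of genes.

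**Figure D2:**
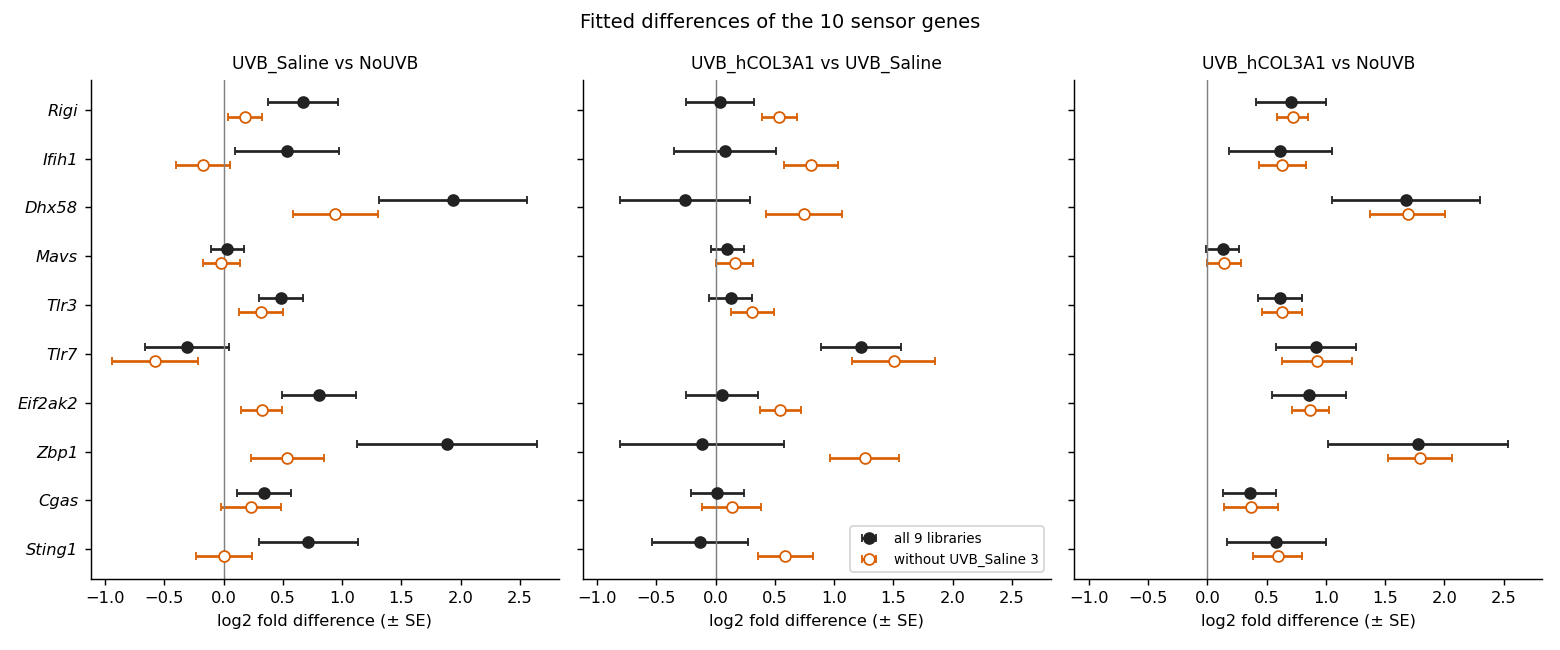
Fitted log2 difference with its standard error (horizontal axis) for each sensor gene (vertical axis) in the 3 comparisons. Filled points use all 9 libraries and open points leave out UVB_Saline 3: Zbp1 against NoUVB goes from 1.89 to 0.54 in the saline comparison and from 1.78 to 1.79 in the hCOL3A1 comparison.

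By the median over the 10 genes, spread within groups was widest among the saline libraries. The highest library was 1.06- to 2.23-fold above the lowest within NoUVB (median 1.22 over the 10 genes), 1.34- to 7.01-fold within UVB_Saline (median 2.86), and 1.01- to 1.54-fold within UVB_hCOL3A1 (median 1.29). Zbp1 had the widest range in NoUVB and UVB_Saline, and Sting1 in UVB_hCOL3A1. Averaged over the 10 genes, log2 CPM stood -0.11, 0.36 and 1.31 from the NoUVB mean in the saline libraries 1, 2 and 3, and 0.67, 0.83 and 0.90 from it in the hCOL3A1 libraries. NoUVB 1, 2 and 3 lay at 0.16, -0.14 and -0.02, so UVB_Saline 1 was within their range.

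The 5 genes whose profile over the 9 libraries was closest to that mean were Lrrc4 (a synaptic adhesion protein), Fermt3 (kindlin-3 of blood cells), Coro1a (an actin-binding protein of leukocytes), Sp100 (a nuclear body protein) and Samd9l (an interferon-induced antiviral protein). Their root mean square difference from it was 0.11 to 0.14 on the log2 scale, where the median of the 12794 candidate genes was 0.52. Within the group, Rigi (0.08), Eif2ak2 (0.13) and Ifih1 (0.19) were nearest to the shared profile of which they are part. Zbp1 (0.61), Tlr7 (0.59) and Dhx58 (0.51) were farthest.

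Downstream of the sensors, 12 transcripts that interferon induces were followed as a list, and its members did not all share 1 pattern. Cxcl10 was at 3.20 and 3.10 CPM in UVB_hCOL3A1 1 and 2, inside its NoUVB range of 2.32 to 6.53 CPM. Ifit3 and Rsad2 were lower in UVB_Saline 3 than in UVB_Saline 2. In UVB_Saline against NoUVB 12 of 12 were positive, with a median log2 difference of 1.94 against 0.01 over all genes, and 11 passed the unadjusted threshold, against 4.93% of all genes, while 0 passed after adjustment. Other settings did call members, and only the 3 with the smallest p (Cmpk2, Mx1 and Ifit1) were followed gene by gene in every setting. DESeq2 and library size alone called Ifit1 and Mx1, an antiviral GTPase, and the fit with no low-count filter called Cmpk2. The nucleotide kinase Cmpk2 was at 1.28, 1.34 and 1.35 CPM in NoUVB, 2.36, 3.70 and 4.88 CPM in UVB_Saline and 3.35, 4.05 and 3.56 CPM in UVB_hCOL3A1, with no overlap between irradiated and NoUVB libraries (1.45 ± 0.30 for saline, adjusted p = 0.231). Ifit1, which binds foreign RNA caps, averaged 10.5 ± 9.19 CPM in UVB_Saline and 1.80 ± 0.0882 CPM in NoUVB (SD, n = 3). Without UVB_Saline 3 the list's median was 1.198. In UVB_hCOL3A1 against NoUVB 12 of 12 were positive, with a median of 1.78. Of these, 10 passed the unadjusted threshold, against 6.29% of all genes, and 0 were called, against 0.0408%. Without UVB_Saline 3, which was picked for its high sensor values, 7 were called, against 1.02% of genes called higher in that fit. Between UVB_hCOL3A1 and UVB_Saline the median was -0.03, with 6 of 12 positive. Averaged over the list, log2 CPM stood 0.65, 1.47 and 2.67 above the NoUVB mean in the saline libraries 1, 2 and 3, in the same order as the sensors. In the hCOL3A1 libraries 1, 2 and 3 the list was nearly level at 1.675, 1.672 and 1.655 above it, where the sensors rose from 0.67 to 0.90.

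**Figure D3:**
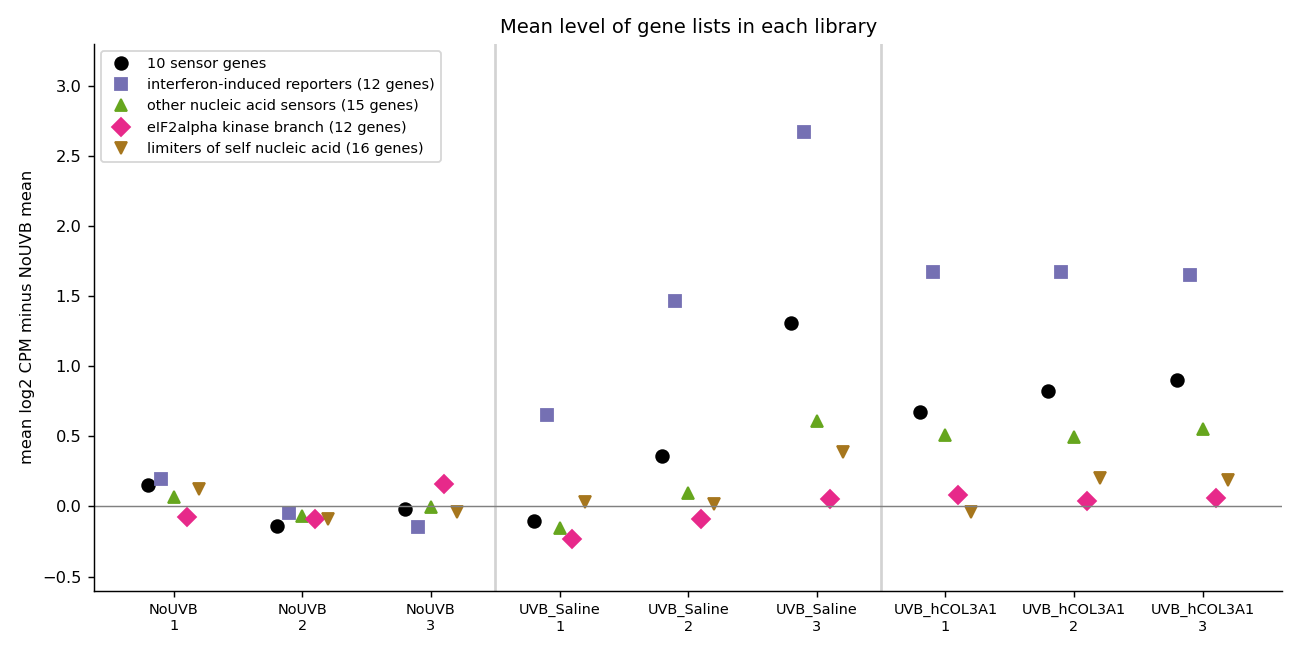
Mean log2 CPM of 5 gene lists relative to the NoUVB mean (vertical axis) in each of the 9 libraries (horizontal axis), each symbol being 1 list. The 10 sensor genes run from -0.11 to 1.31 across the saline libraries and from 0.67 to 0.90 across the hCOL3A1 libraries, and the interferon-induced list runs from 0.65 to 2.67 and from 1.65 to 1.67.

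Interferon genes themselves were almost undetected. Of 21 listed genes of the type I, II and III families, 13 had 0 counts in all 9 libraries and 0 passed the filter. Ifnb1 had 1 count in all, in UVB_hCOL3A1 1. A count of 0 allows up to 3 counts, or 0.229 to 0.426 CPM depending on the library, so lower levels were not detectable at this depth. Ifnk, the interferon of keratinocytes, had 2 to 13 counts per library, and Ifng, the interferon of NK and T cells, had 24 counts in UVB_Saline 3, 10 in UVB_hCOL3A1 3, 7 in UVB_hCOL3A1 1 and 1 to 4 in the other 6 libraries.

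Among the adaptors, kinases and transcription factors, Irf7 differed most. Irf7, the factor that drives interferon production and is itself interferon-induced, was at 6.11, 5.89 and 4.81 CPM in NoUVB, 9.85, 16.2 and 23.3 CPM in UVB_Saline, and 40.6, 58.9 and 33.6 CPM in UVB_hCOL3A1. The 3 groups did not overlap. It rose in UVB_hCOL3A1 against NoUVB (log2 difference 2.99 ± 0.33, adjusted p = 0.0482), while 1.56 ± 0.33 for saline against NoUVB (adjusted p = 0.271) and 1.43 ± 0.30 for hCOL3A1 against saline (adjusted p = 0.206) did not pass. Both of those were called in DESeq2 (adjusted p = 0.00111 and 0.00171) and with library size alone (0.00665 and 0.0189), and the second also without UVB_Saline 3 (0.0379). The call against NoUVB was lost without any 1 of the NoUVB libraries, UVB_Saline 2, UVB_hCOL3A1 1 or UVB_hCOL3A1 2 (adjusted p = 0.0647 to 0.228) and in limma voom (0.0671), with the difference between 2.73 and 3.17 throughout. Irf3, its constitutive relative, was at 26.3 to 29.0 CPM in NoUVB, 24.1 to 29.9 CPM in UVB_Saline and 22.8 to 24.9 CPM in UVB_hCOL3A1. Over the list of 21, 14 were positive for saline against NoUVB (median 0.21), 14 for hCOL3A1 against saline (median 0.12), and 17 for hCOL3A1 against NoUVB (median 0.23), where Irf7 was the only one called.

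Other endosomal receptors were also compared. Tlr13, a receptor of bacterial ribosomal RNA, was at 3.69, 2.41 and 4.33 CPM in NoUVB, 2.46, 6.08 and 8.02 CPM in UVB_Saline and 14.03, 16.7 and 11.9 CPM in UVB_hCOL3A1. The hCOL3A1 libraries were above all others, with log2 differences of 1.36 ± 0.35 from saline (adjusted p = 0.247) and 2.04 ± 0.37 from NoUVB (adjusted p = 0.121). DESeq2 called both (adjusted p = 0.0285 and 0.000145), and the fit on NoUVB and UVB_hCOL3A1 alone called the second (0.00166). Tlr9, the receptor of unmethylated DNA, was likewise higher in every hCOL3A1 library (9.07, 10.6 and 7.77 CPM) than in any saline library (2.67, 5.18 and 7.26 CPM), with a log2 difference of 0.87 ± 0.29 (adjusted p = 0.336). Against NoUVB the Tlr9 difference was 1.25 ± 0.30 (adjusted p = 0.170), and it was called in DESeq2 (0.0256) and in the fit of those groups alone (0.00772). Tlr8 (7.93, 9.03 and 10.9 CPM against 2.67, 5.18 and 9.0 CPM) and Unc93b1, the chaperone that carries these receptors to endosomes (34.6, 30.9 and 41.7 CPM against 15.4, 20.8 and 38.7 CPM), overlapped because of UVB_Saline 3. Tlr8, Irf3 and Unc93b1 lie outside the naming rule and were chosen after their values were seen.

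Macrophage markers also differed between the groups. Within UVB_hCOL3A1 the order of their sum over the libraries was the reverse of that of Tlr7. Adgre1 (36.1, 27.5 and 38.0 CPM) and Cd68 (39.6, 66.6 and 40.2 CPM) did not follow that order. Both were above their highest level in the other groups (25.6 and 28.1 CPM). Mrc1 and, narrowly, C1qb were also above all other libraries, while Csf1r, C1qa and C1qc overlapped UVB_Saline 3. All 7 of 7 markers were detected in every library, and their summed level was 257 to 274 CPM in NoUVB, 164, 281 and 404 CPM in UVB_Saline 1, 2 and 3, and 382, 444 and 501 CPM in UVB_hCOL3A1 1, 2 and 3. As a percentage of that sum, Tlr7 was 1.88, 1.89 and 1.91 in NoUVB, 0.940, 1.78 and 1.34 in UVB_Saline, and 2.80, 2.06 and 1.66 in UVB_hCOL3A1. On that scale the hCOL3A1 libraries overlapped NoUVB but stayed above UVB_Saline 1 and 3, and UVB_hCOL3A1 3 was below UVB_Saline 2. Tlr13 was 0.880 to 1.69% of the sum in NoUVB, 1.50 to 2.17% in UVB_Saline and 2.37 to 3.75% in UVB_hCOL3A1, so the hCOL3A1 libraries stayed above both other groups, which overlapped. On that scale the hCOL3A1 and saline libraries overlapped for Tlr8 (2.03 to 2.18% and 1.63 to 2.23%), Tlr9 (1.55 to 2.39% and 1.63 to 1.84%) and Unc93b1 (6.95 to 9.07% and 7.40 to 9.59%). In bulk skin, fewer or more cells of a type and less or more RNA per cell cannot be told apart, and their part in the Tlr7 difference was not tested.

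**Figure D4:**
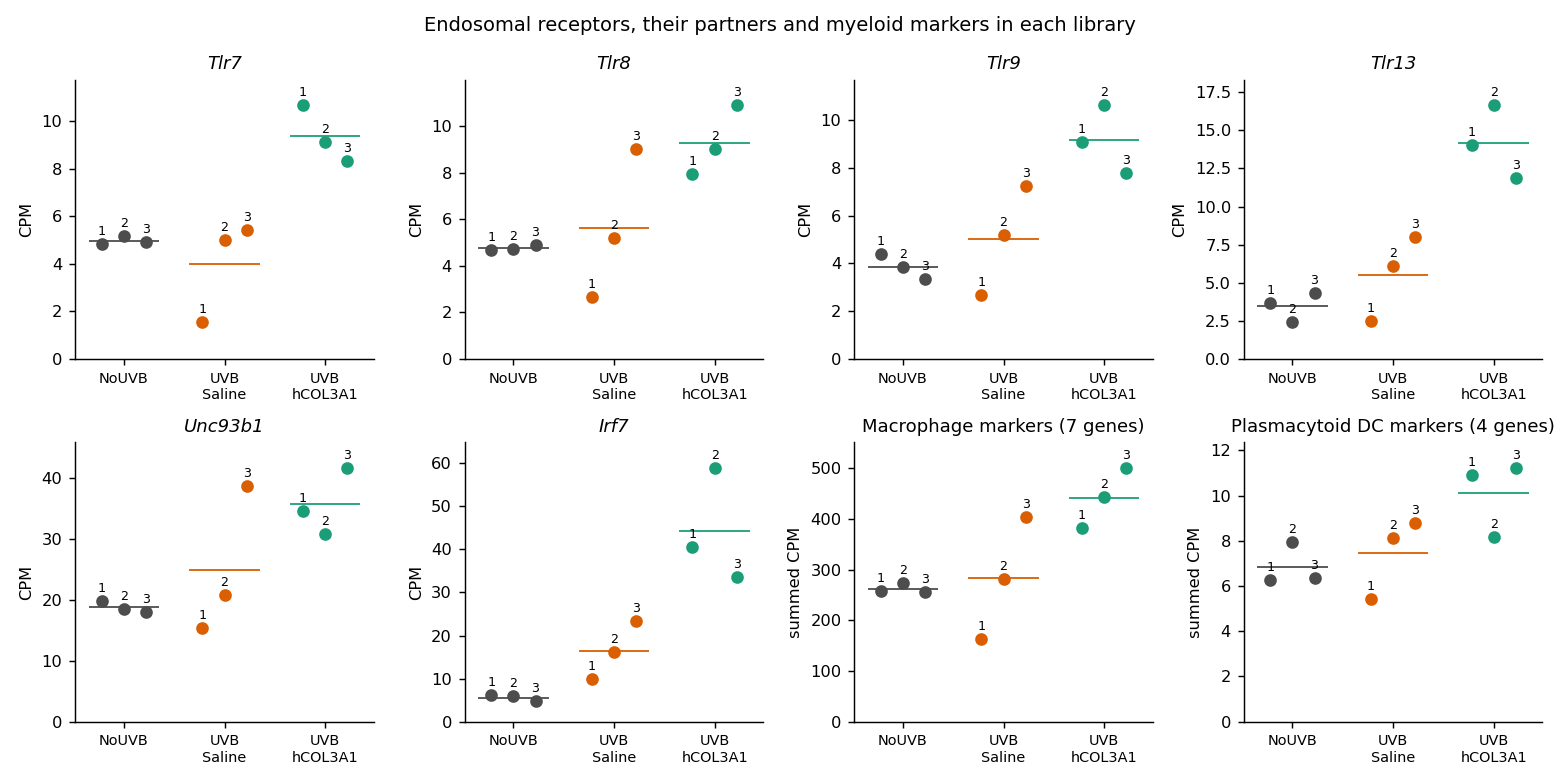
Levels of Tlr7, the other endosomal receptors, Unc93b1 and Irf7 (vertical axes, CPM) and summed levels of macrophage and plasmacytoid dendritic cell (DC) markers (summed CPM) in the 9 libraries, grouped along the horizontal axis; points carry replicate numbers and bars are group means. Tlr7 is at 8.31 to 10.7 CPM in the hCOL3A1 libraries and at most 5.42 CPM elsewhere, and the macrophage sum is lowest in UVB_Saline 1 at 164 CPM.

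Markers of other cell types varied as well. The 4 plasmacytoid dendritic cell markers were all detected, at a summed 6.25 to 7.95 CPM in NoUVB, 5.44 to 8.78 CPM in UVB_Saline and 8.19 to 11.2 CPM in UVB_hCOL3A1. The 7 NK cell markers summed to 1.15 to 2.5 CPM in NoUVB, 1.85, 1.73 and 13.6 CPM in UVB_Saline 1, 2 and 3, and 8.09 to 9.30 CPM in UVB_hCOL3A1. Gzma was at 0 in all NoUVB libraries and UVB_Saline 2, Klre1 at 0 in 5 libraries and Klrb1c at 0 in NoUVB 1. Sums for T cells (40.4 CPM), neutrophils (21.4 CPM) and conventional type 1 dendritic cells (31.9 CPM) were also highest in UVB_Saline 3. Those for macrophages, B cells, mast cells, plasmacytoid dendritic cells and Langerhans cells were highest in an hCOL3A1 library. The 4 B cell markers summed to 0.284 to 0.804 CPM in NoUVB, 0.308 to 3.04 CPM in UVB_Saline and 0.564 to 4.65 CPM in UVB_hCOL3A1. The 7 keratinocyte markers summed to 4105 to 5446 CPM in NoUVB, 5091 to 8098 CPM in UVB_Saline, highest in UVB_Saline 3, and 4512 to 6554 CPM in UVB_hCOL3A1. The part of these differences in cell content in the sensor levels was not tested.

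In the list of 15 other sensors, which includes Tlr8, Tlr9 and Tlr13, 12 were positive for UVB_Saline against NoUVB (median 0.20, and 0.01 without UVB_Saline 3). For UVB_hCOL3A1, 9 were positive against UVB_Saline (median 0.19) and 12 against NoUVB (median 0.41), with 0 called in any comparison. Ddx60, a helicase linked to RIG-I, was at 21.6, 16.0 and 11.8 CPM in NoUVB, 12.9, 22.9 and 61.1 CPM in UVB_Saline and 26.1, 20.6 and 28.8 CPM in UVB_hCOL3A1. Among 14 regulators of RIG-I-like receptors and STING, 11 were positive for saline against NoUVB (median 0.12) and 0 were called. Trim25, the ubiquitin ligase that activates RIG-I, was at 35.9 to 39.0 CPM in NoUVB, 34.7, 51.2 and 70.4 CPM in UVB_Saline and 57.0, 57.9 and 68.5 CPM in UVB_hCOL3A1. Usp18, which curbs interferon signalling, was at 2.12 to 3.48 CPM in NoUVB, 2.46, 5.26 and 10.8 CPM in UVB_Saline and 4.65, 6.96 and 7.34 CPM in UVB_hCOL3A1.

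In the eIF2alpha list, the median stayed near 0. The list also holds the other eIF2alpha kinases (Eif2ak1, Eif2ak3 and Eif2ak4), so it is not a measure of PKR output. Of 12 tested genes 6 were positive for UVB_Saline against NoUVB, with a median of 0.00. For UVB_hCOL3A1, 10 were positive against UVB_Saline (median 0.08) and 9 against NoUVB (median 0.11), and 0 were called in any comparison. Ddit3, the stress factor CHOP, was at 6.11, 6.61 and 6.35 CPM in NoUVB, 4.82, 4.77 and 4.77 CPM in UVB_Saline and 7.93, 10.3 and 6.91 CPM in UVB_hCOL3A1. The 3 groups did not overlap, with a log2 difference of 0.80 ± 0.18 for hCOL3A1 against saline (adjusted p = 0.206). Ppp1r15a (GADD34), which removes the phosphate that PKR adds, was at 18.04, 19.1 and 24.2 CPM in NoUVB and 15.5, 11.4 and 15.9 CPM in UVB_Saline (log2 difference -0.53 ± 0.17, adjusted p = 0.380). In UVB_hCOL3A1 it was at 15.3, 17.0 and 13.9 CPM, so both irradiated groups lay below NoUVB.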

How the data were processed

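RNA of 9 mouse skin libraries was sequenced as paired 150 bp reads, per the labels' protocols. The authors deposited 1 table of estimated counts (11.1% to 14.0% of values per library not whole). Per the submitters' processing notes, the build was GRCm39 and the tools included RSEM 1.3.3, STAR 2.7.11b, Bowtie2 2.5.4, fastp 0.23.4 and DESeq2 1.44.0. No role or strand setting is stated there, and reads of overlapping genes may be mixed. Groups came from sample titles.

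Counts were rounded, filtered by filterByExpr, scaled by TMM and tested in R 4.3.3 with edgeR 4.0.16 (robust quasi-likelihood, 1 fit of all 9 libraries, two-sided, Benjamini-Hochberg over 17168 genes, threshold 0.05). Profiles used log2 CPM with a prior count of 2. The test was tried on simulated data. Libraries of a group differed by more than sampling noise (chi-square per degree of freedom 8.18 to 250). Alternatives used DESeq2 1.42.0, limma 3.58.1, other scalings, filters and libraries.

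Members and lists were chosen with earlier results of these data known. Named were all 10 sensors, per list up to 3 genes (saline against NoUVB) and 2 (hCOL3A1 against saline) with the smallest p, not all of which are printed, interferon genes with counts, and the 5 nearest profiles (average log2 CPM of at least 1, predicted genes left out). The IRF core was added after the longer motif gave no match. A further motif searched is not reported here.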

Additional observations from a re-analysis of the deposited data

How the results depend on the processing

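Counts of called genes over the whole table moved far more than the sensors' fold differences. For UVB_Saline against NoUVB the 3 calls became 100 with library size alone, 73 with no low-count filter, 96 in DESeq2 and 61 with the replicate block, and 0 to 12 with 1 library left out. For UVB_hCOL3A1 against UVB_Saline the 0 calls became 30, 106, 173 and 74 in the same order, and 0 to 78 with 1 library left out. For UVB_hCOL3A1 against NoUVB the 7 calls became 159, 178, 269 and 118 in that order, 407 in the fit of only the 2 groups compared, 1 with non-robust dispersion and 0 in limma voom, and 0 to 242 with 1 library left out. The other alternatives stayed within 1.5 times the count. The median log2 difference of the 10 sensors lay between -0.21 and 0.57 for UVB_hCOL3A1 against UVB_Saline with 1 library left out. Replicate numbers are not said to pair animals: same-numbered libraries of different groups had correlated deviations over 0.1 in 5 of 9 pairs (0.02 to 0.41), and 6 of 9 libraries were closest to one with their own number. The replicate block called 0 sensors in each comparison.

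Directions that turned belonged to differences near 0 or to UVB_Saline against another group. With 1 library left out, UVB_Saline against NoUVB ranged from -0.17 to 0.90 for Ifih1, -0.064 to 0.15 for Mavs, -0.58 to 0.065 for Tlr7, -0.28 to 0.55 for Tlr8 and -0.063 to 0.65 for Unc93b1. UVB_hCOL3A1 against UVB_Saline ranged from -0.23 to 0.54 for Rigi, -0.28 to 0.81 for Ifih1, -0.68 to 0.75 for Dhx58, -0.018 to 0.20 for Mavs, -0.19 to 0.55 for Eif2ak2, -0.53 to 1.26 for Zbp1, -0.16 to 0.14 for Cgas, -0.40 to 0.59 for Sting1 and -2.09 to 0.050 for Cxcl10. With library size alone Mavs was -0.038 (saline) and -0.0011 (hCOL3A1) against NoUVB and Cgas -0.034 for hCOL3A1 against saline. In limma voom, hCOL3A1 against saline was 0.12 for Dhx58, 0.44 for Zbp1 and 0.065 for Sting1, and with the replicate block 0.21 for Zbp1. The cause was not tested. At 15 to 20 counts per library, as for Tlr7 in UVB_Saline 1 and Dhx58 in NoUVB, counting error limits precision.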

Other observations

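Interferon receptor genes did not all share 1 pattern. Ifnlr1, the receptor chain for type III interferon in epithelia, was at 6.25, 5.63 and 6.54 CPM in NoUVB, 8.21, 8.06 and 7.70 CPM in UVB_Saline and 4.80, 5.08 and 4.32 CPM in UVB_hCOL3A1. The 3 groups did not overlap, and the hCOL3A1 libraries were the lowest (log2 difference from saline -0.75 ± 0.15, edgeR adjusted p = 0.201). Ifngr1, a receptor chain for type II interferon, was lower in UVB_Saline (36.0, 43.8 and 60.2 CPM) than in NoUVB (65.1, 68.8 and 75.0 CPM), with a log2 difference of -0.58 ± 0.21 (adjusted p = 0.447). Ifnar1, a chain of the type I interferon receptor chosen after its values were seen, was at 25.1 to 30.6 CPM in NoUVB, 26.7 to 41.7 CPM in UVB_Saline and 33.7 to 36.3 CPM in UVB_hCOL3A1. Of the 14 receptor and signalling genes, 11 were positive for saline against NoUVB (median 0.28, and -0.03 without UVB_Saline 3) and 12 for hCOL3A1 against NoUVB (median 0.29), and 0 were called in any comparison.

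Genes that keep self nucleic acid below the reach of the sensors went both ways. Of 16 genes, 11 were positive for UVB_Saline against NoUVB (median 0.10) and 7 for UVB_hCOL3A1 against NoUVB (median -0.05), and 0 were called in any comparison. Adar, the RNA editing enzyme that marks self RNA, was at 31.0, 25.3 and 25.3 CPM in NoUVB, 30.8, 33.1 and 62.7 CPM in UVB_Saline and 32.0, 30.6 and 41.8 CPM in UVB_hCOL3A1. Skic2, a helicase of the cytosolic RNA exosome, was lower in every hCOL3A1 library (18.4, 19.9 and 20.3 CPM) than in any saline library (23.3, 26.4 and 26.7 CPM), with a log2 difference of -0.39 ± 0.11 (adjusted p = 0.263). Pld4, an endolysosomal exonuclease, was at 12.9, 12.7 and 8.56 CPM in NoUVB, 7.90, 13.1 and 25.9 CPM in UVB_Saline and 23.4, 27.5 and 27.6 CPM in UVB_hCOL3A1. Its difference between hCOL3A1 and saline was 0.75 ± 0.36 (adjusted p = 0.479), and 1.33 without UVB_Saline 3 (adjusted p = 0.0379). In the death branch below Zbp1, 5 of 8 genes were positive for saline (median 0.20) and 7 of 8 for hCOL3A1 (median 0.34) against NoUVB, and 0 were called. Ripk3, the necroptosis kinase, was at 3.304 to 4.71 CPM in NoUVB, 4.21 to 8.46 CPM in UVB_Saline and 4.73 to 5.83 CPM in UVB_hCOL3A1. Casp6, a caspase tied to ZBP1 signalling, was at 10.2, 10.3 and 10.7 CPM in NoUVB, 6.98, 7.23 and 8.13 CPM in UVB_Saline and 7.55, 8.47 and 8.96 CPM in UVB_hCOL3A1, so the irradiated libraries were all below NoUVB (saline difference -0.48 ± 0.14, adjusted p = 0.353).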
